A study of Mus musculus with 6 samples.

Results

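The genes described are 39 genes of S phase and DNA replication, chosen by name: the subunits of the Mcm2-7 helicase and the proteins that load and start it, the replicative polymerases with their clamp, clamp loader and joining enzymes, enzymes that supply deoxynucleotides, and factors that copy chromatin behind the fork. Each gene was represented by the probe that carries its symbol, the one with the highest mean signal where there were several, and a probe was tested if its detection p-value was under 0.05 on at least 3 of the 6 arrays. By this rule 38 of the 39 genes were tested, out of 11559 genes in all, and each of the 38 was detected on all 6 arrays. Pola1, the catalytic subunit of polymerase alpha, was detected on 0 of 6 arrays and was not tested. The rule uses the name and the signal of a probe and no difference between the genotypes.

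The study compared Ter119-positive bone marrow cells, a fraction selected by an antigen of the erythroid lineage, from 3 wild type mice and 3 mice labelled mDia2 KO, whose knockout the series describes as conditional. All 6 mice were C57BL/6 and 4 months old, and 1 Illumina bead array was run per mouse. mDia2 is the product of Diaph3 and belongs to the formins, which build straight actin filaments. The Cre driver, the cells in which the gene had been deleted, and whether the wild type mice carried a floxed allele or a Cre are not given in the labels. Signals are intensities on a linear scale from RNA of the whole fraction, so fewer replicating cells and less of an RNA per cell cannot be told apart.

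Before S phase, Cdc6 and Cdt1 load the Mcm2-7 complex as an inactive ring at origins, and Cdc45 and the GINS complex then turn it into the running helicase. Primase and polymerase alpha start each strand, the clamp loader places the Pcna ring, and polymerases delta and epsilon extend the strands from deoxynucleotides that ribonucleotide reductase and its partner enzymes make. Erythroblasts, the nucleated precursors of red cells, express this machinery strongly because they divide rapidly before they leave the cell cycle and lose their nucleus, and many of its genes are regulated by E2F factors at the passage from G1 to S phase.

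Because E2F sites are a known feature of such promoters, the bases upstream of the start of each gene were searched in RefSeq sequences of build GRCm38.p6. The table held 33 of the 39 genes in 39 windows, since some genes have more than 1 start, and Rfc2, Pole, Gins2, Mcm4, Prim2 and Gins1 were not among them. The letters searched on both strands were TTTCCCGC, TTTGGCGC, TTTCGCGC and TTTGCCGC for an E2F-type motif and CCAAT for a CCAAT box, within 250 bases before the start. At least 1 E2F-type match lay in 7 of the 39 windows (17.9%), against 1.86% of the 32851 windows of all genes. The 7 windows belonged to Mcm5, Mcm6, Mcm7, Cdc6, Rfc3, Pola1 and Uhrf1. A CCAAT box lay in 22 of the 39 windows (56.4%), against 33.8% of all windows. A match is a description of the letters and not a site of binding, and no binding was measured in these mice.

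The 4 stretches printed here are those of the genes of helicase loading with a match, because this is the group that held most of the matches. Each covers the 170 bases before the start, 5′ to 3′ on the strand of the gene, with the E2F-type letters in capitals.
Mcm5: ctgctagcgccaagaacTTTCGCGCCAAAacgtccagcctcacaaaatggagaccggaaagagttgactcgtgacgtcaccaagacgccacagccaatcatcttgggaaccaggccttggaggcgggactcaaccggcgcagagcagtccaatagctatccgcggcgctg
Mcm6: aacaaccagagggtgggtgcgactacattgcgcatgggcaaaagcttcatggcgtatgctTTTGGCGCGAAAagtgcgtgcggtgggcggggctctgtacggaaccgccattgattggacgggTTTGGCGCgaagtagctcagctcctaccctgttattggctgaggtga
Mcm7: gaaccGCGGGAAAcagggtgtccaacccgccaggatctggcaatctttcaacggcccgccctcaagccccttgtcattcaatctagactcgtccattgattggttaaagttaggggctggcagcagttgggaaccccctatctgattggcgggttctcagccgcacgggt
Cdc6: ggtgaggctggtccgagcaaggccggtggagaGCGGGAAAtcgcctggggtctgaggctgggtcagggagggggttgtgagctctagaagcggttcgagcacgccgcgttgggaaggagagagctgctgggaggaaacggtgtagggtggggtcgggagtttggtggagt
The Mcm5 stretch lies on the plus strand at chr8:75109339-75109508, and the capitals are 2 overlapping matches on opposite strands that begin at positions -153 and -149 from the start. The Mcm6 stretch, at chr1:128359706-128359875 on the minus strand, holds an overlapping pair of the same kind at -110 and -106 and a further match at -47. The Mcm7 stretch, at chr5:138171884-138172053 on the minus strand, holds 1 match at -165. The Cdc6 stretch, at chr11:98907981-98908150 on the plus strand, holds 1 match at -138. The fitted changes of these genes, given with their group, did not pass the test in any of the 4.

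The arrays detected 14815 to 16951 of 45281 probes, with the lowest number in knockout mouse 1 and the highest in wild type mouse 3. The targeted gene, listed as Diap3, was read by a bright and a dim probe. The brighter read 1045, 965 and 969 in wild type mice 1, 2 and 3. In knockout mice 1, 2 and 3 it read 574, 341 and 486. The groups did not overlap, the mean in knockout mice stood at 47.0% of wild type, and the log2 change of -1.12 had an adjusted p of 0.0917 (limma, Benjamini-Hochberg over all tested probes). The dim probe read 119, 106 and 112 in wild type and 94.9, 101 and 97.1 in knockout mice. Its knockout mean stood at 86.7% of wild type, with a log2 change of -0.20 (adjusted p = 0.225 in limma). The labels do not say where either probe lies relative to the deleted part. Diaph3 lies on chromosome 14, which holds none of the 39 genes. Defining erythroid markers were strong on every array: the 10 of 11 listed that were tested summed to signals of 152708 to 167376 in wild type and 169048 to 172223 in knockout mice. Markers of other cells were present too. Neutrophil markers, 14 of 15 tested, summed to 38109 to 54485 in wild type and 15220 to 26879 in knockout mice, and monocyte and macrophage markers, 10 of 11 tested, to 4179 to 12106 and 2111 to 4546.

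None of the 38 replication genes passed the test for a difference between the genotypes. This does not show that they were unchanged, since the targeted gene did not pass either. In the limma fit 0 of 38 passed an adjusted p of 0.05, against 12 of all 11559 genes (0.104%), and the smallest adjusted p among them was 0.212, for Pold2, the second subunit of polymerase delta. At an unadjusted p of 0.05, 1 of the 38 was lower in knockout mice (again Pold2; 18.6% of all genes were lower) and 0 of 38 were higher (1.30% of all genes). Signals of the 2 groups did not overlap for 3 of the 38, all lower in knockout mice (Cdt1, Pold2 and Chaf1b; 7.89%, against 23.2% of all genes). No replication gene was higher without overlap, against 2.02% of all genes. The 3 against 3 design allows no exact permutation p under 0.1.

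The signals of all genes were shifted between the groups on the scale of the deposited values. Of the 38 genes, 33 (86.8%) had a log2 change below 0, and so had 81.2% of all genes. Their median change was -0.099, the median of all genes was -0.11, and the difference of these medians was 0.0081. The change of single genes ran from -0.27 for Rfc1 to 0.12 for Rfc4. Rescaling the arrays moved this shift and turned the sign: the 38 genes had a median of 0.0076 after quantile normalization (all genes 0.0096) and of 0.076 after centring each array on its tested probes (all genes 0.068). A direction given for a replication gene below is therefore on the deposited scale, and a relative change is the change minus the median of all genes.

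**Figure D1:**
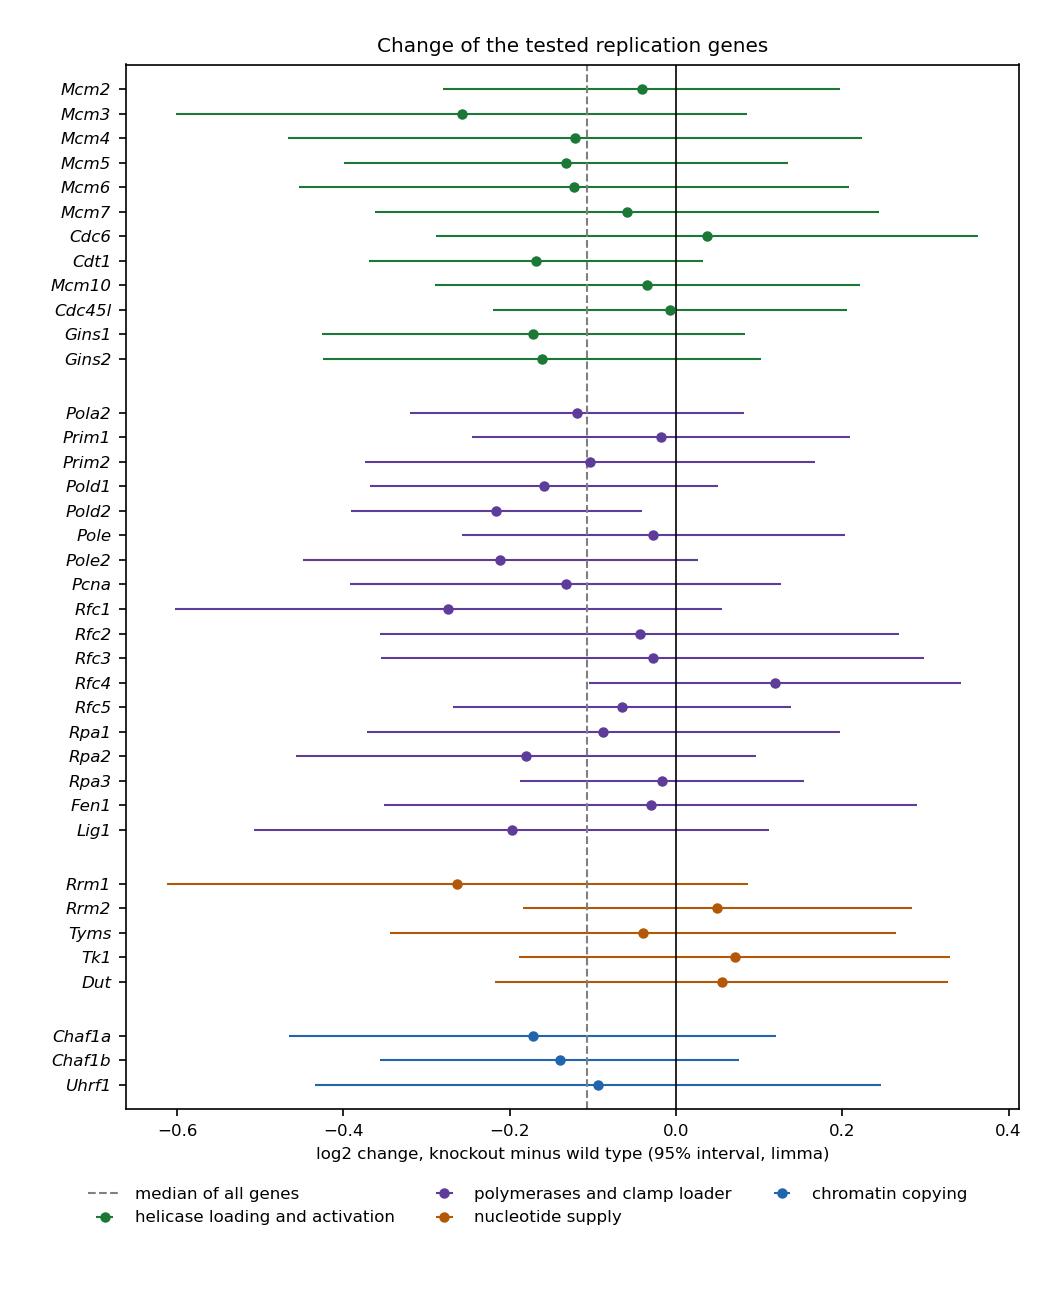
Log2 change, knockout minus wild type, of the 38 tested replication genes with 95% intervals from the limma fit, on the scale of the deposited signals, ordered and coloured by role; the dashed line is the median of all 11559 genes. The points lie between -0.27 (Rfc1) and 0.12 (Rfc4), and the interval of 1 gene, Pold2, does not hold 0.

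The intervals show what sizes of change these 6 arrays leave possible. The 95% intervals of 37 of the 38 genes held 0, the exception being Pold2. Those of 37 held the median of all genes, and here the exception was a different gene, Rfc4. Its interval of -0.1051 to 0.3431 lay just above that median of -0.1066. None reached a log2 change of -1 or 1. Among the probes that represent the genes, the lowest bound was -0.61 for Rrm1, or 65.4% of wild type. The highest was 0.36 for Cdc6, or 129% of wild type. Standard errors ran from 0.074 for Rpa3 to 0.15 for Rrm1, and the intervals reached a median of 0.27 to either side. No background had been subtracted from the signals, so differences of dim probes such as those of Prim1 and Pole2 are compressed, and signals are not compared between probes.

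All 6 subunits of the Mcm2-7 helicase were measured, and none passed the test. Their log2 changes ran from -0.26 for Mcm3 to -0.041 for Mcm2, with a median of -0.12, which is 0.016 below that of all genes. Mcm3 read 532, 553 and 751 in wild type mice 1, 2 and 3 (612 ± 121, SD, n = 3) and 448, 562 and 512 in knockout mice 1, 2 and 3 (508 ± 57.1, SD, n = 3). One wild type animal, mouse 3, stood above the other 5 mice, and knockout mouse 2 lay above wild type mice 1 and 2, so the groups overlapped. The Mcm3 change of -0.26 (SE 0.15; -0.15 relative to all genes) had an adjusted p of 0.371. The knockout means of the other 5 subunits were 96.9% of wild type for Mcm2, 91.4% for Mcm4, 90.8% for Mcm5, 92.3% for Mcm6 and 96.8% for Mcm7. Their relative changes were 0.066, -0.015, -0.026, -0.016 and 0.048 in that order. Adjusted p-values of these 5 lay between 0.543 and 0.845 in limma.

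Of the proteins that load the ring, Cdt1, which Geminin restrains after an origin has been licensed, had non-overlapping groups. Its probe read 2302, 2346 and 2603 in the wild type mice (2417 ± 162, SD, n = 3) and 2294, 2148 and 2009 in the knockout mice (2150 ± 142, SD, n = 3), each set in the order of mice 1, 2 and 3. Knockout mouse 1 came within 8 units of wild type mouse 1, so the separation was narrow, and the knockout mean was 89.0% of wild type. The change of -0.17 (SE 0.086; -0.062 relative to all genes) had an adjusted p of 0.327. Cdc6, the ATPase that brings Cdt1 and the ring to the origin, lay above 0 at 0.038 (SE 0.14; 0.14 relative to all genes; adjusted p = 0.901 in limma), and its 6 signals of 1030 to 1383 overlapped between the groups.

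The 4 proteins that start the helicase were all below 0 on the deposited scale, and none passed. Gins1, a subunit of the GINS complex, read 744, 904 and 960 in wild type and 757, 728 and 821 in knockout mice (869 ± 112 and 768 ± 47.4, SD, n = 3 each). Wild type mouse 1 lay among the knockout mice and the other 2 wild type mice above them. Its change was -0.17 (SE 0.11; -0.065 relative to all genes), with an adjusted p of 0.418. Gins2, its partner in the complex, read 496, 487 and 596 in wild type and 420, 473 and 519 in knockout mice (526 ± 60.7 and 471 ± 49.4, SD, n = 3 each). Here knockout mouse 3 lay above wild type mice 1 and 2, and the change was -0.16 (SE 0.11; -0.054 relative to all genes; adjusted p = 0.455). Cdc45l, the name in the table for Cdc45, which completes the helicase, had a change of -0.0075 (0.099 relative to all genes) and a knockout mean of 99.6% of wild type. Mcm10, which helps to start the assembled helicase, had a change of -0.034 (0.072 relative) and a knockout mean of 97.4%. Over helicase loading and activation, 11 of 12 genes lay below 0 on the deposited scale with a median of -0.12, which became 0.053 after centring.

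Among the polymerases, those of strand extension held the one gene at an unadjusted p under 0.05. Pold2, which joins the catalytic subunit of polymerase delta to its other subunits, read 619, 570 and 639 in wild type mice 1, 2 and 3 (609 ± 35.8, SD, n = 3) and 528, 532 and 512 in knockout mice 1, 2 and 3 (524 ± 10.4, SD, n = 3). All 3 knockout mice lay below all 3 wild type mice, and the knockout mean was 86.0% of wild type. The change was -0.22 (SE 0.076, 95% interval -0.39 to -0.041; -0.11 relative to all genes). The unadjusted limma p was 0.0220, at which 18.6% of all genes were lower, and the adjusted p was 0.212. Without wild type mouse 1, wild type mouse 3 or knockout mouse 3 it no longer had an unadjusted p under 0.05. The same held after quantile normalization (change -0.052), after centring on the tested probes (-0.041), with normexp and with an intensity trend in the variance, and in the last 2 settings the single gene at that level was Pole2.

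Pold1, the catalytic subunit of polymerase delta, read 1696, 1968 and 2034 in wild type and 1767, 1666 and 1658 in knockout mice (1899 ± 179 and 1697 ± 60.9, SD, n = 3 each). Wild type mouse 1 fell within the knockout values, and the change of -0.16 (SE 0.090; -0.052 relative to all genes) had an adjusted p of 0.367. Pole2, an accessory subunit of polymerase epsilon, gave dim signals of 114, 133 and 134 in wild type and 119, 98.9 and 110 in knockout mice (127 ± 11.3 and 109 ± 10.2, SD, n = 3 each). Knockout mouse 1 lay above wild type mouse 1. Its change was -0.21 (SE 0.10; -0.11 relative to all genes; adjusted p = 0.305), and after normexp background correction it was -0.49, the lowest of the 38 in that setting. Pole, the catalytic subunit of polymerase epsilon, had a change of -0.027 (0.079 relative to all genes) and a knockout mean of 97.7% of wild type.

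Primase and polymerase alpha, which lay down the primers, were measured through 3 of their 4 genes. Pola2, the accessory subunit of polymerase alpha, had a knockout mean of 92.0% of wild type, and the primase subunits Prim1 and Prim2 had 99.1% and 92.8%. Their changes were -0.12, -0.018 and -0.10 (-0.013, 0.088 and 0.0033 relative to all genes), with adjusted p-values of 0.469 to 0.932 in limma. The Pola1 probe read 82.9 to 91.6 over the 6 arrays, beside median signals of 86.7 to 89.5 of undetected probes, so it carries no measured level of that gene.

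The clamp loader held both the lowest and the highest change of the 38 genes. Rfc1, the large subunit of the loader, read 761, 847 and 1116 in wild type mice 1, 2 and 3 and 738, 795 and 694 in knockout mice 1, 2 and 3 (908 ± 185 and 742 ± 50.7, SD, n = 3 each). The signal of wild type mouse 3 stood well above the rest, while knockout mouse 2 lay between wild type mice 1 and 2. The knockout mean was 81.7% of wild type, and the change of -0.27 (SE 0.14; -0.17 relative to all genes) had an adjusted p of 0.331. Rfc4, a small subunit, read 816, 861 and 1000 in wild type and 1026, 944 and 929 in knockout mice (892 ± 95.8 and 966 ± 52.2, SD, n = 3 each). The knockout mice surrounded wild type mouse 3, and the other 2 wild type mice lay below them. Its change was 0.12 (SE 0.097; 0.23 relative to all genes; adjusted p = 0.515), and its second probe, given below, lay on the other side of 0.

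The other small subunits Rfc2, Rfc3 and Rfc5 had knockout means of 96.5%, 97.1% and 95.7% of wild type, and relative changes of 0.063, 0.079 and 0.042. Pcna, the sliding clamp itself, read 658 to 896 over the 6 mice, with a change of -0.13 (SE 0.11; -0.026 relative to all genes; adjusted p = 0.531 in limma). The 3 subunits of replication protein A, which covers single-stranded DNA, had changes of -0.087 for Rpa1, -0.18 for Rpa2 and -0.017 for Rpa3 (0.019, -0.074 and 0.090 relative to all genes). Of the enzymes that finish the lagging strand, the flap nuclease Fen1 had a change of -0.031 (0.076 relative). The ligase Lig1 read 1864, 1986 and 2335 in wild type and 1902, 2006 and 1501 in knockout mice (2061 ± 244 and 1803 ± 266, SD, n = 3 each). Knockout mouse 3 was far below the other 5 mice, whose groups were interleaved, and the change of -0.20 (SE 0.13; -0.091 relative to all genes) had an adjusted p of 0.437. Over this group of polymerases, clamp, loader and joining enzymes, 17 of 18 tested genes lay below 0 on the deposited scale, with a median of -0.095 that became 0.079 after centring.

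Nucleotide supply was the group in which most genes, 3 of 5, lay above 0 on the deposited scale, and none passed. Rrm2, the small subunit of ribonucleotide reductase that is made in S phase, read 1326, 1349 and 1512 in wild type and 1589, 1464 and 1288 in knockout mice (1396 ± 101 and 1447 ± 151, SD, n = 3 each). Knockout mouse 1 was the highest and knockout mouse 3 the lowest of the 6, so the wild type values lay inside the knockout range. Its change was 0.050 (SE 0.10; 0.16 relative to all genes; adjusted p = 0.803). Rrm1, the large subunit, read 2404, 2707 and 3561 in wild type and 2387, 2624 and 2142 in knockout mice (2891 ± 600 and 2384 ± 241, SD, n = 3 each). Again wild type mouse 3 stood far above the others, and the knockout mice overlapped the other 2 wild type mice. The Rrm1 change was -0.26 (SE 0.15; -0.16 relative to all genes), with an adjusted p of 0.371.

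Tk1, the thymidine kinase of dividing cells, read 2734, 2758 and 3428 in wild type and 3398, 2947 and 2989 in knockout mice (2973 ± 394 and 3111 ± 249, SD, n = 3 each). All 3 knockout mice lay between wild type mouse 2 and wild type mouse 3. Its change was 0.071 (SE 0.11; 0.18 relative to all genes; adjusted p = 0.743). Dut, the enzyme that removes dUTP before it can be built into DNA, read 186, 237 and 249 in wild type and 222, 244 and 228 in knockout mice (224 ± 33.1 and 231 ± 11.2, SD, n = 3 each). Wild type mouse 1 was the lowest of the 6, and without it the change of 0.055 (SE 0.12; 0.16 relative to all genes; adjusted p = 0.814) became -0.072. Tyms, the thymidylate synthase, had a change of -0.040 (0.067 relative) and a knockout mean of 96.2% of wild type. The median of these 5 genes was 0.050, which is 0.16 above that of all genes. It turned to -0.072 without wild type mouse 1, -0.021 without knockout mouse 1, -0.025 with the mean of the probes of a gene and -0.10 within the mice with 4-digit numbers, and the difference between this group and the others was not tested.

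The 3 factors that copy chromatin lay below 0 on the deposited scale and above 0 after centring, and none passed. Chaf1b, a subunit of the histone chaperone CAF-1, read 944, 939 and 1125 in wild type and 867, 932 and 923 in knockout mice (SD 106 and 35.4, n = 3 each), with a knockout mean of 90.5% of wild type. The groups did not overlap, although knockout mouse 2 came within 7 units of wild type mouse 2. The change was -0.14 (SE 0.093; -0.034 relative to all genes), with an adjusted p of 0.432. Chaf1a, the large subunit of the same chaperone, read 944, 1013 and 1291 in wild type and 961, 1018 and 882 in knockout mice (1082 ± 184 and 953 ± 68.4, SD, n = 3 each). The highest signal, in wild type mouse 3, stood apart and the other 5 were interleaved, with a change of -0.17 (SE 0.13; -0.066 relative to all genes; adjusted p = 0.473). Uhrf1, which recognises newly copied DNA that is methylated on one strand, read 3960, 3938 and 4981 in wild type and 4051, 4718 and 3345 in knockout mice (4293 ± 596 and 4038 ± 686, SD, n = 3 each). Knockout mouse 2 lay close to the highest wild type mouse and knockout mouse 3 was the lowest of all. Its change of -0.094 (SE 0.15; 0.013 relative to all genes; adjusted p = 0.741) was 0.018 without wild type mouse 3 and 0.035 without knockout mouse 3.

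**Figure D2:**
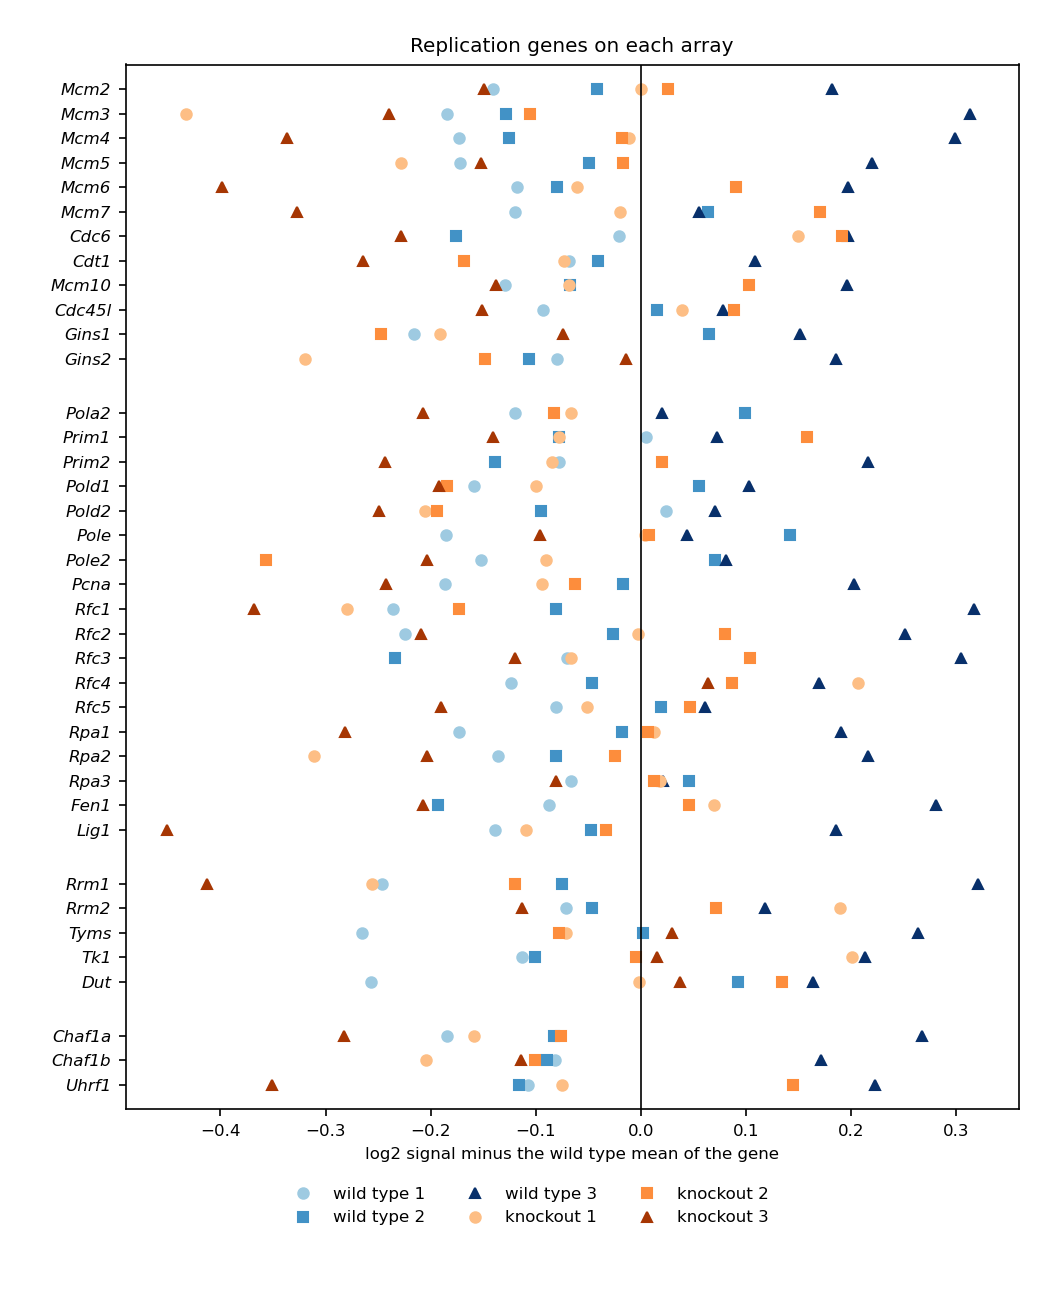
Log2 signal of each tested replication gene on each of the 6 arrays, minus the mean of the 3 wild type arrays for that gene; blue symbols are wild type and orange symbols knockout mice. Wild type mouse 3 is the highest point for 30 of the 38 genes and knockout mouse 3 the lowest for 24, and the 2 colours are separate for 3 genes.

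The replication genes differed between mice of one genotype, and on the deposited scale the same 2 mice stood at the ends for most of them. Wild type mouse 3 was the highest of the 6 arrays for 30 of the 38 genes (78.9%, against 59.3% of all genes), and knockout mouse 3 was the lowest for 24 (63.2%, against 42.6%). Relative to the wild type mean, the mean log2 signal of the 38 genes was -0.13, -0.045 and 0.18 in wild type mice 1, 2 and 3 and -0.074, -0.016 and -0.19 in knockout mice 1, 2 and 3. Over all genes the same means were -0.052, -0.058 and 0.11 in wild type and -0.13, -0.086 and -0.20 in knockout mice. Knockout mice 1 and 2 thus lay between the highest and the lowest wild type mouse for the replication genes, while over all genes each knockout mouse lay below each wild type mouse. With the mean of all genes subtracted on each array, the replication genes had -0.081, 0.013 and 0.067 in wild type mice 1, 2 and 3. Knockout mice 1, 2 and 3 then had 0.053, 0.070 and 0.0073. On that relative scale wild type mouse 1 was the lowest and knockout mouse 2 the highest, and knockout mouse 3 was not at an end.

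Leaving out either of the 2 mice at the ends changed the count of genes below 0. Without wild type mouse 3, 21 of the 38 lay below 0 (55.3%, against 71.3% of all genes), with a median of -0.014. Without knockout mouse 3, 20 lay below 0 (52.6%, against 74.3%), with a median of -0.0083. The number of genes at an unadjusted p under 0.05 was 5 without wild type mouse 1 (Gins1, Pold1, Pole2, Rfc1 and Rrm1, all lower), 2 without knockout mouse 1 (Pold2 and Pole2) and 0 without knockout mouse 3. It was 1 without wild type mouse 3, where that gene was Rfc4, higher in knockout mice. Of all genes, 17.4%, 13.3%, 10.6% and 12.4% were at that level in either direction in these 4 settings. With any single mouse left out, 0 of the 38 had an adjusted p under 0.05 in limma, with smallest values of 0.186 to 0.506. Over all genes, the 12 that passed became 6 without wild type mouse 3, knockout mouse 1 or knockout mouse 3, 33 without wild type mouse 2 and 152 without knockout mouse 2.

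The numbers in the mouse names fall into a series with 3 digits and a series with 4 digits, and the labels do not say what a series stands for. In the first, wild type mouse 1 could be set beside knockout mice 1 and 2, and 30 of the 38 replication genes were higher in knockout mice, with a median of 0.086, where all genes had -0.033. In the second, wild type mice 2 and 3 could be set beside knockout mouse 3, and 37 of the 38 were lower in that mouse, with a median of -0.24, where all genes had -0.19. At an unadjusted p of 0.05 there were 0 genes of the 38 in the first series and 1, Lig1, in the second, against 3.27% and 9.99% of all genes, and none passed after adjustment. Each series has a single mouse in one genotype, and the difference between the series was not tested. With the series as a term in the fit, the median was -0.095 and the lowest adjusted p among the 38 was 0.372.

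**Figure D3:**
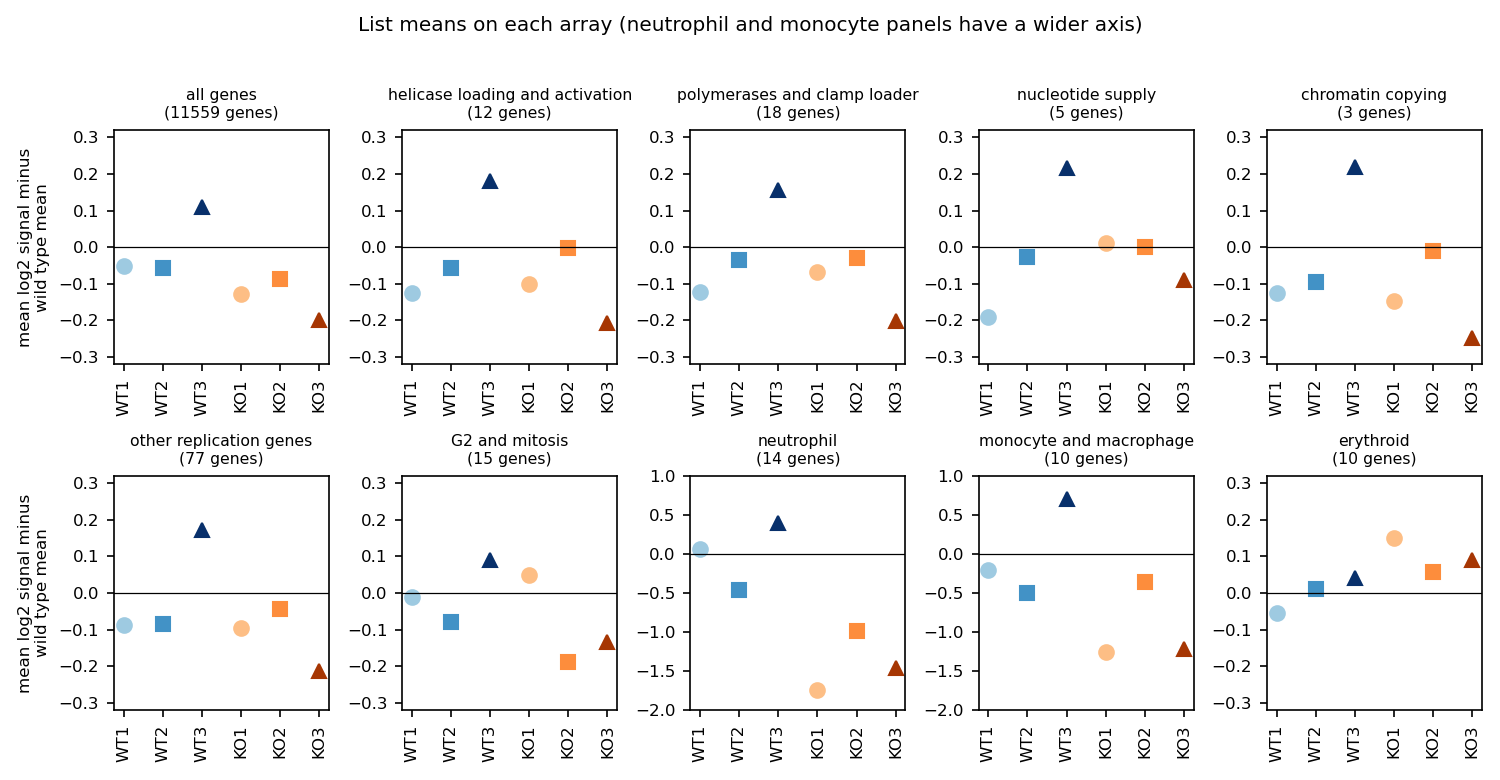
Mean log2 signal of each gene list on each array, relative to the mean of the 3 wild type arrays, for the replication groups, other replication genes, mitotic genes and markers of other cells; the neutrophil and monocyte panels have a wider axis. Wild type mouse 3 is the highest array in each of the 4 replication groups, and neutrophil markers lie lower in each knockout mouse than in each wild type mouse.

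All tested markers of other blood cells lay below 0 on the deposited scale, where 81.2% of all genes did. These markers also differed between mice, in an order that matched the replication genes in part. By the test used for the replication genes, a single marker passed, Cd79b of the B lineage (adjusted p = 0.00383 in limma). No neutrophil, monocyte and macrophage, megakaryocyte or T and NK marker passed. Their smallest adjusted p-values in limma were 0.0904, 0.187, 0.0917 and 0.233 in that order. The summed signal of the monocyte and macrophage markers was highest in wild type mouse 3, at 12106. On the deposited scale this was the mouse in which the replication genes were highest too. Among knockout mice it was highest in knockout mouse 2, at 4546, against 2111 and 2220 in the others, and the neutrophil sum was highest there as well, at 26879. Both sums were lowest in knockout mouse 1 (15220 for neutrophil markers), not in knockout mouse 3, the lowest mouse for the replication genes on that scale. The 14 tested neutrophil markers were each lower in knockout mice with no overlap, against 23.2% of all genes. So were 8 of 8 megakaryocyte, 6 of 7 B lineage, 2 of 10 monocyte and macrophage and 0 of 3 T and NK markers. B lineage markers (7 of 12 tested) summed to 1375 to 1530 in wild type and 893 to 937 in knockout mice. Megakaryocyte markers (8 of 10 tested) summed to 1859 to 2616 and 1449 to 1507. Markers of T and NK cells (3 of 8 tested) summed to 384 to 504 in wild type and 359 to 386 in knockout mice. Their median change of -0.037 lay 0.070 above that of all genes. Genes of early erythroid progenitors (6 of 8 tested) summed to 2107 to 2335 and 1937 to 2173. Most of this sum was Epor, with means of 1402 in wild type and 1397 in knockout mice. All 6 genes lay below 0 (81.2% of all genes did), and 4 were lower without overlap (66.7%, against 23.2% of all genes). Among these 4, Kit stood at 61.5% of wild type and Gata2 at 80.2%. None of the 6 passed (smallest adjusted p 0.180 in limma). The part of these cells in the signals of the replication genes was not tested.

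G2 and mitosis genes, which mark the cells that follow S phase, ordered the mice as the replication genes did only in part. The 15 of 18 tested summed to 35933 to 38729 in wild type and 31941 to 38566 in knockout mice. Their median log2 change was -0.039, and 2 of the 15 were lower at an unadjusted p of 0.05, against 18.6% of all genes. On the deposited scale wild type mouse 3 had the highest mean of the 6 for the mitotic genes (0.0905 relative to wild type), as for the replication genes. Knockout mouse 2, the highest knockout mouse for the replication genes, was the lowest of the 6 for the mitotic genes, with a mean of -0.19.

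Probes for one gene gave a further measure of the spread. The 39 genes had 79 probes in the table, of which 73 were tested, and 55 of these had a change below 0. Of 20 genes with more than 1 tested probe, 10 had all probes on the same side of 0. Among the genes with probes on both sides of 0, Rpa2 had -0.18 on the brightest probe and 0.088 and 0.093 on the others. Prim2 had -0.10 on the brighter probe and 0.10 on the other. Probes of 3 genes disagreed in direction by more than 0.3 on the log2 scale. For Rrm1 the second probe read 1931, 2068 and 2534 in wild type and 2096, 2230 and 1759 in knockout mice, with a change of -0.10, and the third, a dim one, read 157, 219 and 191 and then 204, 254 and 204, with a change of 0.23, against -0.26 for the brightest.

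The second Rfc4 probe read 160, 184 and 181 in wild type and 153, 157 and 142 in knockout mice. On this probe the groups did not overlap, and its change of -0.21 (unadjusted p = 0.0375, adjusted p = 0.243 in limma) was opposite in sign to the 0.12 of the brighter probe. For Lig1, a dim probe read 249, 297 and 321 in wild type and 317, 405 and 302 in knockout mice, with a change of 0.24, beside -0.20 on the brightest and -0.027 and -0.031 on the remaining probes. The 4 tested probes of Mcm6 were all below 0, from -0.32 to -0.017. The lowest of them had a knockout mean of 79.7% of wild type, without overlap (unadjusted p = 0.0427, adjusted p = 0.251 in limma). Its interval reached down to -0.63. A dimmer Rfc2 probe stood at 84.6% of wild type, also without overlap (unadjusted p = 0.0326, adjusted p = 0.233 in limma). The other Rfc2 probes ran from -0.14 to 0.057. The 3 probes of Rrm2 were all above 0, from 0.011 to 0.050. With the mean of all tested probes in place of the brightest, Rfc4 had -0.048 and Dut -0.025, and the median of the 38 genes was -0.080.

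**Figure D4:**
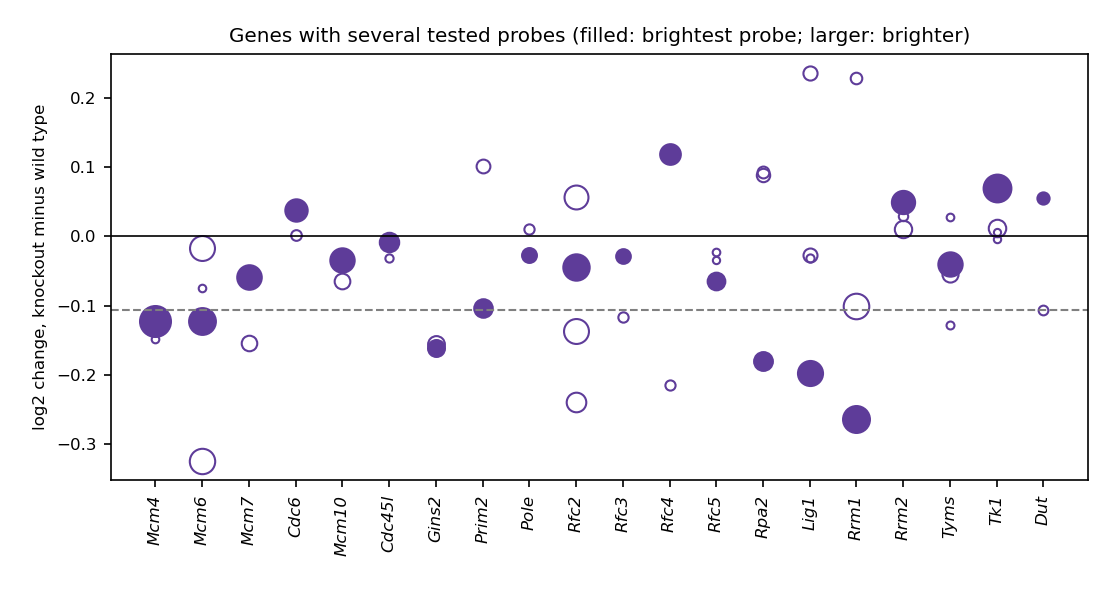
Log2 change, knockout minus wild type, of every tested probe of the 20 replication genes with more than 1; filled symbols are the brightest probe of a gene, open symbols the others, and larger symbols are brighter. Symbols lie on opposite sides of 0 and more than 0.3 apart for Rfc4 (filled 0.12, open -0.21), Lig1 (-0.20 and 0.24) and Rrm1 (-0.26 and 0.23). Other genes, such as Rpa2 and Prim2, have symbols on both sides of 0 that are closer together. The dashed line is the median of all genes.

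The scaling of the arrays decided on which side of 0 the replication genes lay, and under none of the scalings did any of them pass. After quantile normalization 18 of the 38 lay below 0 (47.4%, against 46.6% of all genes), and the 2 genes at an unadjusted p under 0.05, Rfc4 and Dut, were higher in knockout mice. After centring on the tested probes 7 lay below 0 (18.4%, against 32.9%), and Dut, Rfc4, Rrm2 and Tk1 were the 4 genes at that level, all higher. Of all genes, 15.2% were at that level in either direction after quantile normalization and 17.5% after centring. With normexp background correction 33 lay below 0, as on the deposited scale, with a median of -0.10 where all genes had -0.17. The smallest adjusted p among the 38 was 0.197, 0.159 and 0.247 in these 3 settings.

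**Figure D5:**
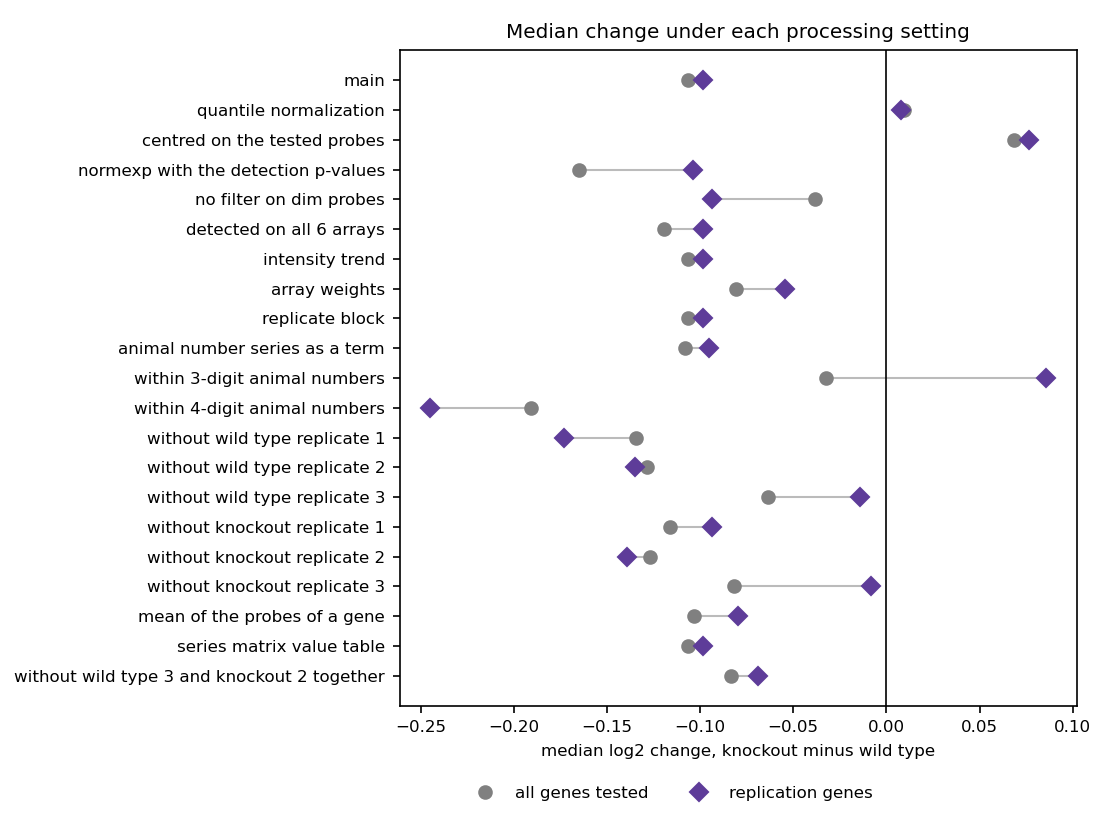
Median log2 change, knockout minus wild type, of the replication genes (diamonds) and of all genes tested (circles) under each processing setting and with each mouse left out. The diamonds run from -0.24 within the mice with 4-digit numbers to 0.086 within those with 3-digit numbers.

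The wider replication machinery was read from a list of 93 further symbols, of which 77 were tested. None of the 77 passed (smallest adjusted p 0.196 in limma), 11 were lower at an unadjusted p of 0.05 (14.3%, against 18.6% of all genes), 0 were higher (1.30% of all genes), and 13 were lower with no overlap (16.9%, against 23.2%). Their median was -0.12, which is 0.0084 below that of all genes. The 19 genes of nucleotide metabolism had the lowest median of the sublists, -0.20, with 6 lower at that level (31.6%) and 7 without overlap (36.8%). Tk2, the thymidine kinase of mitochondria, read 259, 261 and 330 in wild type and 194, 252 and 173 in knockout mice. Knockout mouse 2 came close to wild type mice 1 and 2, and the change of -0.46 (SE 0.16) had an adjusted p of 0.203. Gart, an enzyme of purine synthesis, read 813, 804 and 942 in wild type and 681, 760 and 648 in knockout mice, also without overlap, with a change of -0.29 (SE 0.098; adjusted p = 0.200). Both enzymes also serve cells that are not replicating their nuclear DNA.

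In the other sublists the genes with the smallest p were lower in knockout mice on the deposited scale as well. Of 19 S phase regulators, 6 lay above 0, the highest being E2f2 (0.23, adjusted p = 0.317 in limma). At an unadjusted p under 0.05 there were 2 of the 19, both lower (10.5%, against 18.6% of all genes). These were Tfdp1, the partner of E2F factors, with a knockout mean of 81.5% of wild type (change -0.30, SE 0.098, adjusted p = 0.196), and Chek1, a checkpoint kinase, with 86.0% (-0.22, SE 0.075, adjusted p = 0.205). Of 16 fork components, 2 were lower at that level (12.5%, against 18.6% of all genes). These were Wdhd1, which ties polymerase alpha to the helicase, at 79.3% of wild type, and the topoisomerase Top2a, at 86.0%. Of 10 genes of histone supply and chromatin maintenance, 1 was, Zranb3, a helicase that acts on stalled forks, at 78.8%, and the next was the maintenance methyltransferase Dnmt1, at 86.2%. Of 13 genes of origin recognition and licensing control none was at that level. The 2 of smallest p, the origin recognition subunits listed as Orc2l and Orc3l, stood at 89.5% and 90.2% of wild type.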

How the data were processed

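Per the labels' protocols, RNA was extracted with Trizol and amplified into biotinylated cRNA with an Illumina TotalPrep kit. The table deposited by the authors holds, per the file headers, an average signal (intensity, linear scale) and a detection p-value for each probe and array, under a name that calls the values normalized; how they were normalized is not stated in the labels or headers. Undetected probes kept median signals of 86.7 to 89.5, so background was still in the values. The series' other deposited intensity table held the same values. Lines without values (2) were left out, and 109 probes without a usable gene name, 31 of them tested, were fitted but not named.

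Groups followed the genotype label, with 3 mice each, called biological replicates by the series. Signals were log2 transformed with the normalization kept, 15743 probes passed the detection filter, and the genotypes were compared in limma 3.58.1 (lmFit, eBayes; R 4.3.3) on all 6 arrays with no covariate. Tests were two-sided and p-values were adjusted by Benjamini-Hochberg over these probes. The code was tested on simulated data. Relative changes are minus the median of all genes. The members and gene lists were chosen with earlier results of these data known. All members are accounted for. Values of every array are given for the 4 of smallest p in each role group, those in groups of 3 or fewer and those whose probes disagree by over 0.3; of other replication genes the 2 of smallest p in each sublist were named. The list of other replication genes holds old and new symbols of the same gene. The number of arrays limits the precision. Alternatives covered scaling, background, filters, variance model, replicate block, animal number series, each mouse left out and the probe rule.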

Additional observations from a re-analysis of the deposited data

How the results depend on the processing

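No replication gene had an adjusted p under 0.05 in limma in any of the 20 alternatives run. The count of all genes that passed was 12 and became 34 after centring on the tested probes, 47 with normexp, 3 with detection on all 6 arrays required, 105 with an intensity trend in the variance, 148 with array weights, 3 with the replicate block, 6 with a term for the animal number series, 0 and 0 within the series and 34 at an adjusted p of 0.1; with each mouse left out it ran from 6 to 152. Leaving out wild type mouse 3 and knockout mouse 2 together, a setting chosen after seeing the data because their array weights of 0.364 and 0.549 were the lowest, gave 825. Replication genes at an unadjusted p under 0.05 numbered 1, where 19.9% of all genes were at that level in either direction. The number became 2 after quantile normalization (15.2% of all genes), 4 after centring (17.5%) and 2 without the filter on dim probes (12.6%). It was 2 with array weights (24.2%), 0 with the replicate block (13.0%) and 2 without those 2 mice (24.6%). With each mouse left out it was 0 to 5 (10.6% to 25.9%). Centring gave medians of 0.076 for all replication genes, 0.053 for helicase loading, 0.079 for polymerases, 0.22 for nucleotide supply, 0.035 for chromatin copying and 0.060 for other replication genes. Within the 3-digit series the medians were 0.086 (0.12 relative to all genes), 0.14 for helicase loading, 0.073 for polymerases, 0.068 for chromatin copying and 0.011 for other replication genes. Within the 4-digit series they were -0.24, -0.27 for polymerases, -0.10 for nucleotide supply, -0.37 for chromatin copying and -0.24 for other replication genes. The cause was not tested.

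After centring 7 of the 38 genes lay below 0 and within the 3-digit series 8, against 33 on the deposited scale. Among the genes given with every array, these turned sign. Centring gave Cdt1 0.0063, Gins1 0.0033, Gins2 0.014, Pold1 0.016, Chaf1a 0.0025, Chaf1b 0.035 and Uhrf1 0.081, and quantile normalization gave Gins2 0.011. Within the 3-digit series, Pold1 had 0.017, Rfc1 0.0091, Lig1 0.068, Rrm1 0.058, Chaf1a 0.068 and Uhrf1 0.14. Within the 4-digit series, Rrm2 had -0.15, Tk1 -0.041 and Dut -0.090. The mean of the probes of a gene gave Rfc4 -0.048 and Dut -0.025. With each mouse left out, Rrm2 ran from -0.021 (without knockout mouse 1) to 0.13, Dut from -0.072 (without wild type mouse 1) to 0.14, and Uhrf1 from -0.21 to 0.035, with 0.018 without wild type mouse 3.

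Deviations of equally numbered mice from their group means correlated at 0.21, -0.28 and -0.20, and wild type mouse 3 correlated best with knockout mouse 2 (0.35), so the numbers were not taken as pairs. With the replicate block Pold2 had an unadjusted p of 0.0699 in limma, and the median of the replication genes was -0.099, as without it. The second table of values, counted among the alternatives, held the same values, so it could not change these results and is no separate check.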
